A study of Mus musculus with 4 samples.

Results

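The Sox genes encode transcription factors that share an HMG box, and 8 of them were examined here for Gata4 binding in mesoderm cells: the SoxF genes *Sox7*, *Sox17* and *Sox18*, and *Sox9*, *Sox4*, *Sox11*, *Sox5* and *Sox6*. Every Gata4 peak whose deposited gene name was one of these 8 was taken, which means within 5 kb of the gene, together with every peak within 50 kb of the gene by mm9 coordinates. This gave 41 of the 20410 peaks listed for WT cells and 30 of the 22733 peaks listed for DKO cells, at 8 of 22238 protein-coding genes.

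Gata4 ChIP-seq was carried out on 4 libraries, 1 for each condition, so no value given here has a replicate and no difference between the lists was tested. The WT Flk1(+) cells (clone J1G4.2 by its label, for which the text of the study has a longer name) and the DKO Flk1(+) cells (clone 16G4.3), which lack the de novo DNA methyltransferases Dnmt3a and Dnmt3b, were mesoderm cells sorted by the receptor Flk1 at day 4.5 of ES cell differentiation. Both carried Gata4GR, in which Gata4 is joined to the hormone-binding part of the glucocorticoid receptor and driven by the CAG promoter, and received 100 nM dexamethasone (Dex) for 3 hours. The controls were WT ES and DKO ES cells that also carried Gata4GR and received no Dex. Each was used as the background for the Flk1(+) library of its genotype. Each genotype is thus represented by 1 clone with an introduced Gata4, and the controls differ from the Flk1(+) cells in differentiation as well as in Dex.

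SoxF factors act in the endothelium and in the first blood-forming mesoderm, where *Sox7* and *Sox18* take part in vessel and lymphatic development and *Sox17* in arterial fate and in the formation of endoderm. Sox9 directs cartilage and the cushion cells of the heart valves, and Sox5 and Sox6 assist it in cartilage while Sox6 also acts in red cells and muscle. The SoxC factors Sox4 and Sox11 act in progenitor cells of the nervous system and in the outflow tract of the heart.

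The deposited lists give, for each peak, the height of the Flk1(+) profile, the height of the ES profile, the enrichment, which is their ratio with an ES height below 1 taken as 1, and a rank, with 1 the best. No height in either list was below 5.00. Because the scaling of the heights is not given in the sources used here, heights of the lists are set side by side and no fold between them is given. A rank percentile is the place of a peak within its own list, with 100 the best. A peak counted as shared when the other list had a peak within 500 bp.

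A WT peak lay within 5 kb of 5 of the 8 genes, where 39.4% of all protein-coding genes had one, and a DKO peak within 5 kb of 7 of the 8, where 49.1% of all had one. The WT peaks were at *Sox9*, *Sox4*, *Sox11*, *Sox5* and *Sox6*, and the DKO list added *Sox7* and *Sox17*. Distance was taken to the gene body, so that *Sox5* counted through intronic peaks far from its start. By the deposited gene names alone the counts were 5 for WT and 6 for DKO. The shares of all genes are not matched for gene length. *Sox18* had no peak within 5 kb in either list. Within 50 kb there were WT peaks at 7 genes and DKO peaks at 8, against 67.1% and 70.4% of all protein-coding genes. The gene without a WT peak was *Sox17*. When only the better-ranked 50% of each list was kept, the count within 5 kb was 5 for WT and fell to 4 for DKO, at *Sox7*, *Sox4*, *Sox5* and *Sox6*, against 22.1% and 32.5% of all protein-coding genes.

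The SoxF genes had 4 WT and 10 DKO peaks within 50 kb, and the other 5 genes had 37 WT and 20 DKO peaks. The searched sequence differs widely, since *Sox5* and *Sox6* are long genes. Per 100 kb searched, the SoxF genes had 1.27 WT and 3.18 DKO peaks, and the other 5 genes had 1.82 WT and 0.984 DKO peaks. Over the full length of the chromosomes, gaps and sequence far from genes included, the density was 0.769 WT and 0.856 DKO peaks per 100 kb. That is not a density around genes, which was not computed, so no excess at the Sox genes can be read from it. By gene, DKO peaks within 50 kb outnumbered WT peaks at all 3 SoxF genes. WT peaks outnumbered DKO peaks at 4 of the other 5, with equal numbers at *Sox11*. Peaks close together in a list were each counted, which raises the counts. At *Sox7* the DKO peaks at 64527806 and 64576531 each stood within 500 bp of a taller DKO peak. Such neighbors also occurred at *Sox9* in both lists, at *Sox4* in WT and at *Sox11* in DKO. Of all protein-coding genes, 45.6% had more DKO than WT peaks within 50 kb and 19.6% had more WT peaks. In the better-ranked 50% of both lists, a setting added for these counts after the data were seen, DKO peaks were more numerous at *Sox7* and *Sox18*, and *Sox17* had no peak in either list. Among the other 5 genes the order turned at *Sox4*, with 2 WT and 3 DKO peaks, and at *Sox6*, with 4 and 5, and WT peaks were more numerous at *Sox9*, *Sox11* and *Sox5*. In that setting 37.7% of all protein-coding genes had more DKO peaks and 16.7% had more WT peaks. Counting only peaks with the Sox gene as the nearest protein-coding gene, another setting added after the data were seen, left 2 WT and 6 DKO peaks at the SoxF genes, with 1 in each list at *Sox18*. At 6 of 11 further Sox genes the whole lists had more DKO than WT peaks. Of the remaining 5, named here after their values were seen, *Sox21* had more WT peaks and *Sox2*, *Sox3*, *Sox14* and *Sry* had equal numbers or none. These counts describe 2 libraries, and the study states more mapped reads for the DKO Flk1(+) library than for the WT Flk1(+) library. The part of depth in peaks found in the DKO list alone, among them those at *Sox17* and at the *Sox7* promoter, was not tested.

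*Sox7* is on the plus strand of mm9 at chr14:64562511-64569569. The strongest binding within 50 kb of it lay far upstream, 34970 bp before the *Sox7* start in WT and 34968 bp before it in DKO. These peaks were in an intron of the neighboring gene *Pinx1*, their nearest protein-coding gene, and their deposited gene name was *2610028A01Rik*. The WT peak, at 64527541, had a height of 16.1 against 1.74 in WT ES cells and ranked 703 of 20410. The DKO peak, at 64527543, had a height of 14.4 against 0.841 in DKO ES cells and ranked 395 of 22733. These positions are 2 bp apart, and both ranked high in their lists, at percentiles 96.6 and 98.3. The window held 7 CpGs and 3 matches to AGATAA or TGATAA, the letters of the Gata motif, counted on both strands. A further DKO peak beside it, at 64527806, had a height of 5.44 and 1 match.

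A second shared peak lay downstream of *Sox7*. It was at 64576744 in WT, 7175 bp past the end of the gene, with a height of 9.23 against 0.714 in WT ES cells and a rank of 3393. In DKO it was at 64576767, 23 bp away, with a height of 11.5 against 0.587 in DKO ES cells and a rank of 861. Its window held 7 CpGs and 1 motif match, whose center lay 4 bp from the DKO position. Another DKO peak, at 64576531, stood 213 bp from the WT peak with a height of 5.80. Both WT peaks of *Sox7* thus had a DKO counterpart, and 4 of the 5 DKO peaks had a WT counterpart.

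The fifth DKO peak of *Sox7* lay at its promoter and had no WT counterpart, the nearest WT peak being 14437 bp away. It stood 204 bp upstream of the start with a height of 6.08 against 0.999 in DKO ES cells, at percentile 61.8. Its window was CpG-rich, with 42 CpGs, and its 1 motif match lay 176 bp from the peak position. The 4 other DKO peaks of *Sox7* had from 5 to 10 CpGs. Whether the WT library had a signal under the calling threshold at this promoter cannot be read from the lists. The study reports DKO-specific Gata4 peaks at the *Sox7* promoter, called by comparing WT with DKO Flk1(+) cells. That comparison was not used here.

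*Sox17* is on the minus strand at chr1:4481009-4486494. The WT list had no peak near it, and the closest WT peak, at 4605522, was 119028 bp from the gene. The DKO list had 2 peaks, both within the gene or next to its start. The first, at 4486595, was 101 bp upstream of the start and had a height of 5.51, an ES height of 1.26, an enrichment of 4.35 and a rank of 12587. Its window held 16 CpGs and 1 motif match 74 bp from the peak position. The second, at 4483510 in sequence annotated as 5′ UTR, had a height of 7.11 against 2.37 in DKO ES cells. Its enrichment of 3.00 was at the lower limit of the list, it ranked 21496, and its window held 48 CpGs and no match. Neither DKO peak of *Sox17* stood in the better-ranked 50% of the list.

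*Sox18* is on the minus strand at chr2:181404541-181406345. Its tallest peak in each list lay downstream, 8153 bp past the start in WT and 8162 bp in DKO. The positions, 181398192 and 181398183, are 9 bp apart, and no other protein-coding gene is nearer. In DKO the peak had a height of 16.0 against 0.808 in DKO ES cells and ranked 259, at percentile 98.9. In WT its height was 6.77 against 2.16 in WT ES cells and its enrichment 3.13, and it ranked 19820, at percentile 2.90. The same bases, with 4 CpGs and 1 motif match, were thus near the top of the DKO list and near the bottom of the WT list. A larger ES height in WT than in DKO was usual among shared peaks, at 75.7% of all 8489 pairs of nearest peaks. A larger Flk1(+) height in WT was also usual, at 71.9% of these pairs, whereas the *Sox18* pair had the larger one in DKO. Both shares depend on the unknown scaling. The parts of the Flk1(+) and the ES profile in this change of rank were not tested.

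The other peaks near *Sox18* belonged to its neighbors. A WT peak at 181415128 and a DKO peak at 181415636 lay in an intron of *Tcea2*, which encodes a transcription elongation factor. Both were within 1 kb of the start of a protein-coding gene, at 113 bp for the WT peak and 621 bp for the DKO peak. They were 508 bp apart and so just missed the definition of sharing, and their heights were 5.34 and 6.16. Their windows differed in base composition, with 52 CpGs in the WT window and 9 in the DKO window. The WT peak, at percentile 27.3, ranked better than the taller WT peak downstream, at 2.90. The last of the DKO peaks, at 181394319, was 6.38 high and lay 3954 bp from *Prpf6*, a gene of the splicing machinery.

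**Figure D1:**
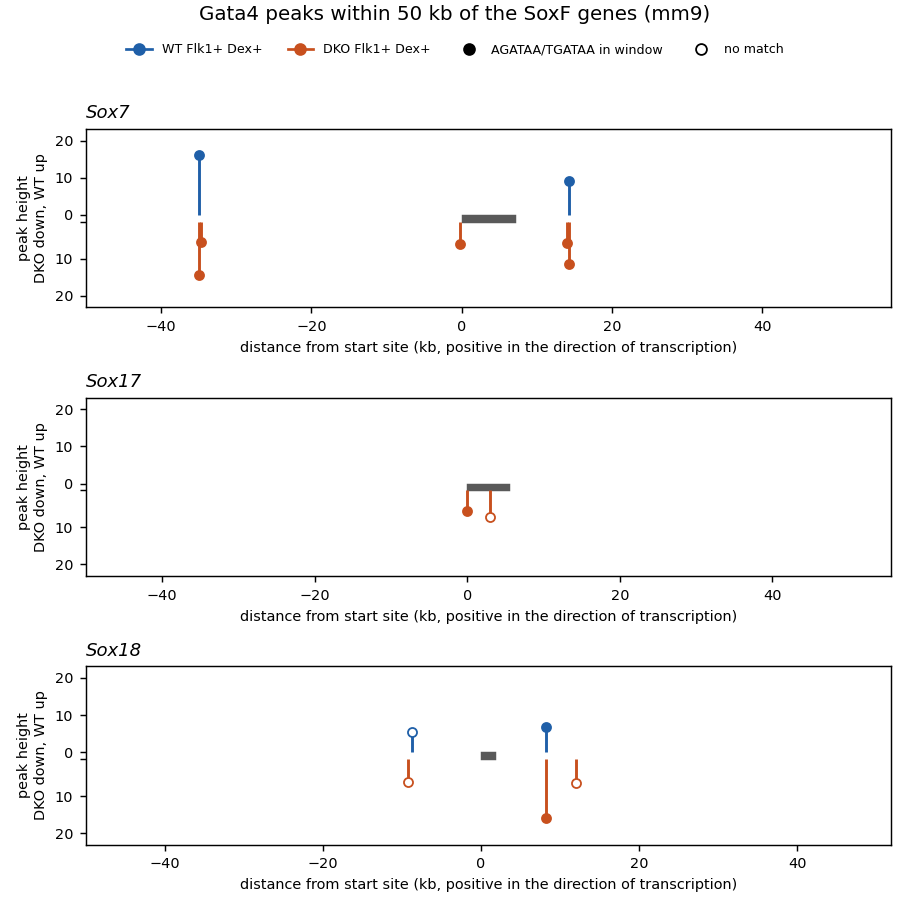
Gata4 peaks within 50 kb of *Sox7*, *Sox17* and *Sox18* by distance from the start site in kb, with the deposited height of WT Flk1(+) peaks drawn upward and of DKO Flk1(+) peaks downward. Grey bars are the genes and filled circles are windows with AGATAA or TGATAA. *Sox17* has 2 DKO peaks and no WT peak, and the DKO peak downstream of *Sox18* has a height of 16.0 where the WT peak has 6.77.

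The bases around the distal shared peaks of *Sox7* and *Sox18* are shown because these were the best-ranked motif-holding peaks of the 2 genes. They are from the plus strand of mm9 at chr14:64527394-64527593 and chr2:181398133-181398233, and capitals mark AGATAA or TGATAA on either strand, so that a match on the minus strand reads TTATCT or TTATCA.
Sox7 upstream: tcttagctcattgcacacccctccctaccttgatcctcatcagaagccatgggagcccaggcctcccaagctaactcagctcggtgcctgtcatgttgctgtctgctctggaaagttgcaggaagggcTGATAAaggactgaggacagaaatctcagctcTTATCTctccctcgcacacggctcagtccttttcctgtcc
Sox18 downstream: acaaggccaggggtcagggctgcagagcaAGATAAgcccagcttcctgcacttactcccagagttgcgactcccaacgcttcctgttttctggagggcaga
The *Sox7* stretch holds 2 of the 3 matches of its window, on opposite strands, and the *Sox18* stretch holds the 1 match of its window.

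*Sox9*, on the plus strand at chr11:112643538-112649074, had 10 WT and 3 DKO peaks. Its best WT peak, at 112643184, was 354 bp upstream of the start with a height of 10.2 against 1.34 in WT ES cells, at percentile 87.2. The DKO peak 19 bp from it had a height of 6.81 against 1.97 in DKO ES cells and stood at percentile 12.0. This promoter peak had 27 CpGs in the WT window and no motif match. The next WT peaks in rank were distal and had no DKO counterpart: 112637949, lying 5589 bp upstream with a height of 6.42 and 2 matches, and 112681707, which is 32633 bp past the gene with a height of 6.03 and 1 match. The other DKO peaks, at 112646520 and 112646201, lay in coding exons with heights of 8.27 and 6.34 and 37 CpGs each. None of the 3 DKO peaks held the motif, whereas 6 of the 10 WT peaks did.

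*Sox4*, a gene on the minus strand at chr13:29040788-29045582, had 5 WT and 4 DKO peaks. Its best peak in each list was a shared one downstream, at 29034179 in WT and 29034193 in DKO, which is 6609 bp and 6595 bp from the gene. The height was 19.0 against 2.16 in ES cells for WT and 8.56 against 1.26 for DKO, and the percentiles were 92.7 and 89.2. Its window held 4 CpGs and 2 matches. The peaks next in rank were not shared: a WT peak at 29045669, just 87 bp before the gene and 6.74 high, and a DKO peak in the coding exon at 29043829, which was 7.27 high and had 57 CpGs. A shared pair upstream, 4935 bp before the start in WT, at 29050517 in WT and 29050451 in DKO, had heights of 5.75 and 6.38 and no match.

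*Sox11*, on the minus strand at chr12:28025562-28027574, had 3 peaks in each list, and those of the DKO list all lay within 411 bp of its start. A shared peak at the start, at 28027605 in WT and 28027622 in DKO, had heights of 10.5 and 5.05 and percentiles of 49.5 and 23.8. It was CpG-rich and still held a motif match, with 52 CpGs in the WT window and the match 4 bp from the WT position. The WT peak with the best rank, at 28028349, was 775 bp upstream with a height of 6.60. The DKO peaks at 28027920 and 28027163 had heights of 5.14 and 9.70 and no match. The third WT peak, at 28004182, lay 21380 bp past the gene with 1 CpG and a height of 5.31.

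*Sox5* is the longest of the genes, with 953553 bp on the minus strand at chr6:143776945-144730497, and all of its 12 WT and 5 DKO peaks were intronic. The deposited gene names gave *Sox5* for 2 of the WT peaks and for none of the DKO peaks, so that the rest were assigned by the GENCODE gene model. Its best WT peak, at 144590171, had a height of 21.6 against 1.71 in WT ES cells and ranked 268, at percentile 98.7, the tallest WT peak of the 8 genes. It held 2 matches and 10 CpGs, and the nearest DKO peak was 28991 bp away. The WT peaks next in rank, at 143804188 and 144547262, had heights of 8.24 and 7.90 and were not shared either. The 3 best DKO peaks, at 144619162, 144665109 and 144653661, had heights of 6.33, 10.6 and 9.18, and each had a WT peak within 28 bp. The heights of these WT peaks were 7.68, 13.7 and 9.82, and every window of these 3 pairs held the motif.

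*Sox6*, on the minus strand at chr7:122614858-123182258, had 7 WT and 5 DKO peaks, most of them intronic. Its best DKO peak, at 122759327, had a height of 12.9 against 1.45 in DKO ES cells and ranked 588, at percentile 97.4, and the nearest WT peak was 93197 bp away. The best WT peak, at 122651298, had a height of 9.89 and 4 matches, and the nearest DKO peak was 98693 bp away. A shared intronic peak at 123085447 in WT and 123085432 in DKO moved in rank as that of *Sox18* did, though less far. Its heights were 11.5 against 3.05 in WT ES cells and 9.91 against 0.989 in DKO ES cells, and its percentiles were 42.7 and 93.5. The other shared peak, at 123047954 in WT and 123047971 in DKO, had heights of 10.8 and 5.97 and percentiles of 63.6 and 58.8. The WT peak at 122666130 had 5 matches in a window of which 58.9% was repeat sequence, whereas the DKO peak 1508 bp before the start, at 123183766, had 30 CpGs and no match.

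**Figure D2:**
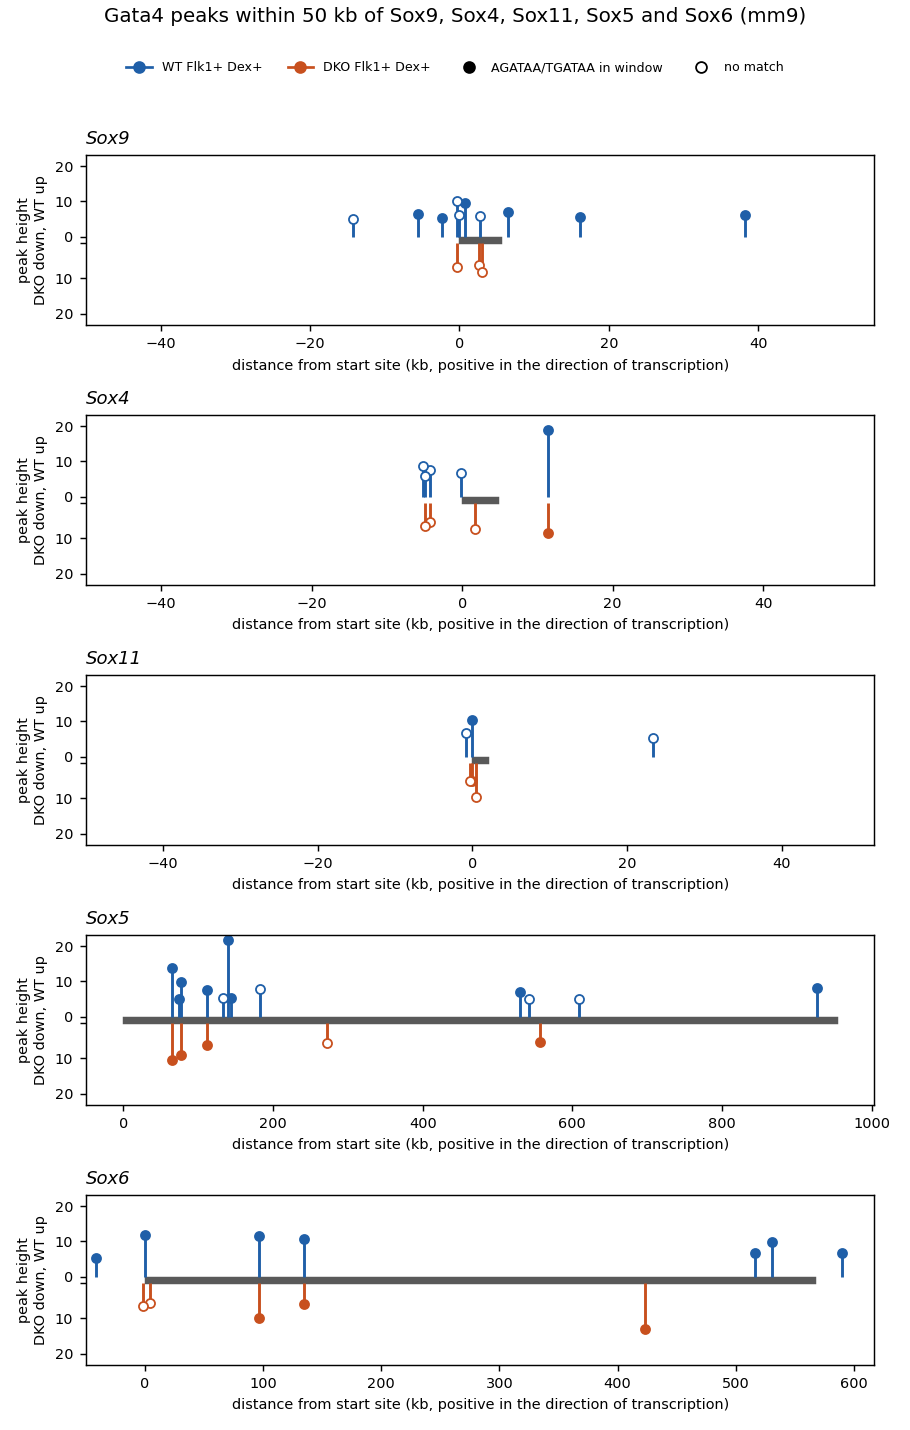
Gata4 peaks within 50 kb of *Sox9*, *Sox4*, *Sox11*, *Sox5* and *Sox6* by distance from the start site in kb, with the deposited height of WT Flk1(+) peaks drawn upward and of DKO Flk1(+) peaks downward. Grey bars are the genes and filled circles are windows with AGATAA or TGATAA. The horizontal scale differs between genes, and the tallest WT peak, at *Sox5*, has a height of 21.6 and no DKO counterpart.

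The bases around the motif-holding shared peaks of *Sox4*, *Sox5* and *Sox6* are given at the DKO positions to show where the motif falls in binding kept in both lists. They were chosen after their values were seen. They are from the plus strand of mm9 at chr13:29034044-29034243, chr6:144619112-144619212, chr6:144653611-144653811, chr6:144665009-144665159, chr7:123047921-123048021 and chr7:123085382-123085482, in that order, with capitals as above. The *Sox4* stretch holds 1 of the 2 matches of its window and the *Sox5* stretch at 144653661 holds 1 of 3, while the others hold all matches of theirs.
Sox4 downstream: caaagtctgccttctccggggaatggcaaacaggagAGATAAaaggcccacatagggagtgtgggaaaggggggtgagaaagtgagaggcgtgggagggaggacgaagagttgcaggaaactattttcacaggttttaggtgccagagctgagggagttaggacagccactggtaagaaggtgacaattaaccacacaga
Sox5 intron at 144619162: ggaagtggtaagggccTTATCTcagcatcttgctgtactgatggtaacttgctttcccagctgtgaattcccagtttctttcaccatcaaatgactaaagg
Sox5 intron at 144653661: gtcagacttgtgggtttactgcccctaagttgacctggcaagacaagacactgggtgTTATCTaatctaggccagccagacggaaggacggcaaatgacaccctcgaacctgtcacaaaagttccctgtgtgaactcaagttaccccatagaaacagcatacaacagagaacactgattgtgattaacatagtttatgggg
Sox5 intron at 144665109: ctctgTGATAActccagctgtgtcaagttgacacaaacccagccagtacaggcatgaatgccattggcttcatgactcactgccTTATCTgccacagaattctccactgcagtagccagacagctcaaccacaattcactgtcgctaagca
Sox6 intron at 123047971: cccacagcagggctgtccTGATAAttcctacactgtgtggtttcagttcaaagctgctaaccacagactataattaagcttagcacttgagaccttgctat
Sox6 intron at 123085432: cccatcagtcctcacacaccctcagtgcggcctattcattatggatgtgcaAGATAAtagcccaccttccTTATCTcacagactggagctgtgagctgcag

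Over all 8 genes, 17 of the 41 WT peaks were shared, or 41.5% (Wilson 95% interval, 27.8% to 56.6%), against 45.6% of the whole WT list. In the DKO list 19 of the 30 were shared, or 63.3% (Wilson 95% interval, 45.5% to 78.1%), against 45.1% of the whole DKO list. These intervals cover counting error only, and peaks of a gene are not independent of each other. The share of the whole WT list lay within its interval, and that of the whole DKO list just under the lower bound. In the better-ranked 50% of both lists, 6 of 16 WT peaks and 7 of 18 DKO peaks were shared, against 39.3% and 36.9% of all such peaks, so that the DKO share, at 38.9%, was near that of all peaks. With positions within 100 bp, 14 peaks of each list were shared, which is 34.1% of the WT and 46.7% of the DKO peaks, against 34.7% and 31.2% of all. At *Sox17* none of the peaks was shared, and at *Sox11* and *Sox9* all 3 of the DKO peaks were. The same peak could be the counterpart of several peaks of the other list, so these are not counts of separate sites. All 3 DKO peaks of *Sox11* had the WT peak at 28027605 as counterpart. WT peaks at *Sox9* and *Sox4* also had a DKO counterpart in common.

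The shared peaks formed 14 pairs in which each peak was the nearest to the other. The DKO percentile was above the WT percentile in 8 of the 14 and below it in 6, where it was above in 55.4% of all 8489 such pairs of the lists. The difference of the percentiles, DKO minus WT, was 96.0 for the *Sox18* pair and -75.1 for the *Sox9* promoter pair. Over all pairs its median was 3.13, with 5% below -53.2 and 5% above 65.9. The *Sox18* difference was the largest of the 14 and was picked after the values were seen. A difference as large as that of *Sox18* occurred in 2 of the 8489 pairs, that pair included.

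**Figure D3:**
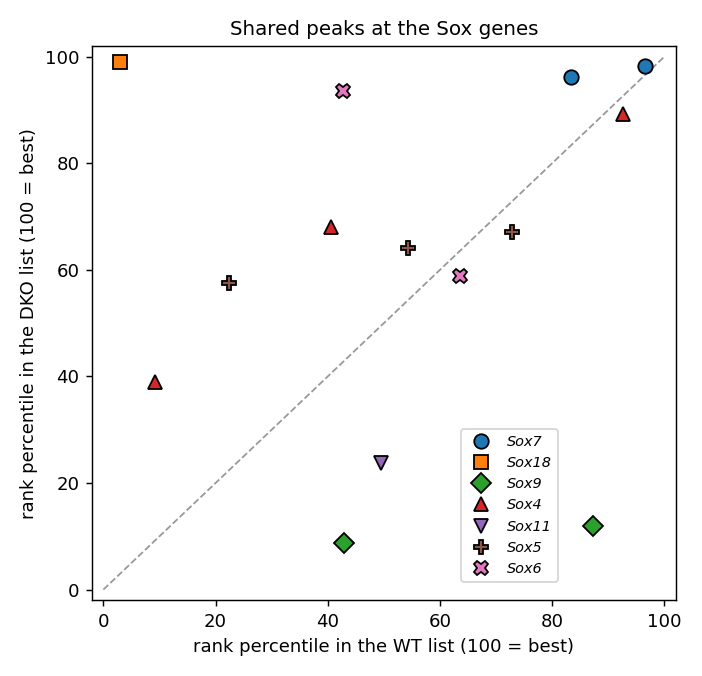
Rank percentile in the WT list (horizontal) and in the DKO list (vertical) of the 14 pairs of shared peaks at the Sox genes, 1 symbol for each pair, with 100 the best rank and a dashed line where both are equal. The *Sox18* pair is at 2.90 and 98.9, the *Sox9* promoter pair is at 87.2 and 12.0, and both *Sox7* pairs are above 80 in each list.

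The motif was held by 26 of the 41 WT peaks, or 63.4% (Wilson 95% interval, 48.1% to 76.4%), where 61.9% of the whole WT list held it. It was held by 16 of the 30 DKO peaks, or 53.3% (Wilson 95% interval, 36.1% to 69.8%), where 38.1% of the whole DKO list held it. The WT share was close to that of its list, and the DKO interval reached from just below to well above that of its list. Here too the intervals cover counting error only. Windows of neighboring peaks overlap, so that the same match can count again. This holds for the DKO peaks at 64576531 and 64576767 of *Sox7*. A motif match describes the letters in the window and does not show that Gata4 was bound there.

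The motif was more frequent in CpG-poor windows at the Sox genes as in the whole lists, with the limit of 20 CpGs chosen after the data were seen. Among peaks with fewer than 20 CpGs in the window, 24 of 31 WT peaks and 14 of 18 DKO peaks held the motif, where 78.4% and 64.6% of such peaks did in the whole lists. Among peaks with 20 or more CpGs, 2 of 10 WT peaks and 2 of 12 DKO peaks held it, where 17.3% and 12.7% did in the whole lists. The median number of CpGs was 7 in the WT peaks of the 8 genes and 14.5 in the DKO peaks, where it was 8 and 21 in the whole lists.

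Most of the peaks were not at promoters. Within 1 kb of the start of any protein-coding gene lay 8 of the 41 WT peaks, against 25.0% of the WT list. So did 7 of the 30 DKO peaks, against 45.3% of the DKO list. The search took in whole genes and 50 kb on each side, which favors peaks far from a start. This applies most to the long genes *Sox5* and *Sox6*, and no *Sox5* peak lay within 1 kb of a start. The shares of the lists are not matched for this search. Within 1 kb of the start of a Sox gene lay 7 WT peaks, at *Sox9*, *Sox4*, *Sox11* and *Sox6*, and 6 DKO peaks, at *Sox7*, *Sox17*, *Sox9* and *Sox11*.

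At the SoxF genes the farthest peaks inside the limit of 50 kb were those in *Pinx1*, which a limit of 20 kb would leave out. The nearest outside it at *Sox7* were a WT peak 56037 bp and a DKO peak 64419 bp from the gene, with heights of 5.40 and 10.9. The nearest DKO peak outside the limit at *Sox17* was 75380 bp away with a height of 15.4, and that at *Sox18* was 87928 bp away with a height of 7.78. At *Sox9* a WT peak with a height of 6.07 lay 50051 bp from the gene and was not counted.

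Of 12 other Sox genes, 11 have a position in the annotation. A WT peak lay within 5 kb of 1 of them, *Sox12*, where 39.4% of all protein-coding genes had one. A DKO peak lay within 5 kb of 4, *Sox8*, *Sox12*, *Sox13* and *Sox15*, where 49.1% of all had one. *Sox12* had 2 WT peaks and 1 DKO peak within 5 kb. The better-ranked of these WT peaks was shared with the DKO peak, with heights of 16.5 in WT and 11.4 in DKO. Of the 3 WT peaks within 50 kb of *Sox12*, 1 was shared and 2 held the motif. None of the best-ranked peaks within 5 kb of these 4 genes held the motif. Their windows had from 40 to 66 CpGs, apart from that of *Sox15* with 14. In the whole lists, 17.3% of WT and 12.7% of DKO peaks with 20 or more CpGs held it.

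The genes most like *Sox7* and *Sox17* were sought by the best rank percentile within 5 kb in each of the 2 lists, with 0 where there was no peak. *Sox7*, at 0 in WT and 61.8 in DKO, was closest to *Plekho2* and *Olfr987*, and *Sox17*, at 0 and 44.6, was closest to *Furin* and *Dcun1d1*. *Sox18*, at 0 in both, was 1 of 9656 protein-coding genes without a peak within 5 kb in either list.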

How the data were processed

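Reads from an Illumina HiSeq (submitters' processing notes: CASAVA 1.8.1, cutadapt) had been mapped to mm9, with an aligner not given in the sources used here. For each Flk1(+) library, prepared with 3 mixed Gata4 antibodies, the authors called peaks over the ES library of that genotype. The deposited values are a signal (profile height in Flk1(+) and ES cells), their ratio (enrichment), the −log10 of a q-value, and a rank, used here as a score. No column names a library, and the stated numbers of peaks told which list was WT and which DKO. The deposited name of each list also gives its genotype. The lists do not give the depth of the libraries. The study states it for the Flk1(+) libraries, with more mapped reads for DKO than for WT, and no value was adjusted for it. For the ES libraries no depth was used here.

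Peaks were counted once. The 501 bp deposited around each peak of the 8 genes were checked against mm9 and were identical. Genes came from GENCODE vM1, the longest entry for each symbol. Repeat sequence is the lower-case part of the deposited window. CpGs and motif matches were counted in the deposited window. *Sox7*, *Sox17*, *Sox18*, *Sox9*, *Sox4*, *Sox11*, *Sox5* and *Sox6* and all lists were chosen with earlier results of these data known. Every SoxF peak was described, the 3 best-ranked peaks of each list for the other 5 genes, with further peaks where sharing or position called for them, and other genes as the nearest neighbor or the most alike. Promoter sequences were not printed. The sharing and motif steps were tested on simulated data. Python 3.11.15, NumPy 2.4.6, pandas 2.3.3, SciPy 1.17.1 and pysam 0.24.0 were used.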

Additional observations from a re-analysis of the deposited data

How the results depend on the processing

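No paired analysis was possible because each condition has 1 library and no result comes from a test. Of 50 alternative values, 34 stayed within 1.5 times the main count and 16 did not or were medians that changed. Keeping the better-ranked 50% of each list left 16 of 41 WT and 18 of 30 DKO peaks within 50 kb, 6 of 17 WT and 7 of 19 DKO shared peaks, and 4 of 7 genes with a DKO peak within 5 kb. An enrichment of at least 5 left 18 WT and 15 DKO peaks within 50 kb and 4 genes with a DKO peak within 5 kb. These settings keep fewer peaks by construction. In the better-ranked 50% of both lists, a comparison by gene added after the data were seen, more DKO than WT peaks lay within 50 kb of 2 of the other 5 genes instead of 0, and more WT than DKO peaks near 2 of the further Sox genes instead of 1. Peaks with the Sox gene as the nearest protein-coding gene, also added then, numbered 2 instead of 4 in WT and 6 instead of 10 in DKO at the SoxF genes. Peaks within 5 kb of a Sox start instead of 1 kb numbered 11 instead of 7 in WT and 14 instead of 6 in DKO. The median number of CpGs over 1 kb from every start was 6 instead of 7 in WT and 7 instead of 14.5 in DKO. The distance for sharing, the looser motif with a last base of A or G, the central 200 bp, and the use of gene names or coordinates alone kept their counts within 1.5 times. A peak missing from a list may have had signal under the calling threshold, and fewer reads were mapped for the WT than for the DKO Flk1(+) library. The effect of depth on such absences was not tested.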
